A study of Homo sapiens with 4 samples.

Results

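The genes of the cytosolic ribosomal proteins and the pseudogene copies of these genes were examined on 4 expression arrays of the human prostate cancer line LNCaP, which responds to androgen. Members were the genes whose single symbol in the deposited table starts with RPL or RPS followed by a digit, by A or by P and a digit. They came to 39 of the 2447 genes with a single symbol, 17 coding genes and 22 pseudogenes, and where a gene had several probe sets the brightest on average stood for it. No kinase or binding protein was caught by the pattern. The 4 groups were siControl vehicle, siControl DHT, siPOTEF-AS1 vehicle and siPOTEF-AS1 DHT, with 1 array each. siPOTEF-AS1 targets the long noncoding antisense RNA POTEF-AS1, and DHT is dihydrotestosterone, the potent natural androgen, given at 10 nM against ethanol vehicle. All 4 groups were kept for 3 days in medium with 2.5% charcoal-stripped serum and were transfected 48 h before the hormone. The design asked how the knockdown bears on androgen-dependent expression. No duration of the hormone treatment and no siRNA sequence is given in the sources used here.

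Ribosomal proteins are the protein part of the small (RPS) and large (RPL) ribosomal subunits. Their genes are among the most highly expressed of dividing cells, and their mRNAs typically begin with a terminal oligopyrimidine (TOP) tract, a C followed by a run of pyrimidines at the first transcribed bases, through which translation follows nutrient and growth signals. The abundance of these mRNAs goes with the many processed pseudogenes in the genome, intronless copies that arose by reverse transcription and mostly lack a promoter of their own. A probe for such a copy can bind the mRNA of the parent gene, so that the values of single copies are uncertain.

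The coding genes stood for 9 small-subunit and 8 large-subunit proteins, out of 88 coding genes of this kind in the RefSeq gene table, and the pseudogenes for 12 and 10. RefSeq lists 3 of the pseudogenes as transcribed. The other ribosomal protein genes are not analysed here by name, because most probe sets of the table carry no symbol. For 5 coding genes the annotated transcript was a clone with a retained intron or a partial clone (RPL7L1, RPS14, RPS15, RPS21 and RPS27L), so their probe sets may not read the main mRNA. Values are log2 signals made with RMA, which brings the probe intensities of all arrays to one distribution before they are summarised per probe set. The summarised values still differed slightly, with array medians between 6.72 (siPOTEF-AS1 vehicle) and 6.77 (siControl vehicle) over all probe sets. In such bulk RNA fewer cells of a type and less RNA per cell cannot be told apart. A signal below 6.82, the median of the 26722 annotated probe sets, was treated as dim, and 2 coding genes (RPS10 and RPS15) and 9 pseudogenes were dim on all arrays. No probe set carried the symbol POTEF-AS1, so that the knockdown was not checked. None of the 12 luminal prostate markers, 5 stromal markers or 6 leukocyte markers was measured by name, and of 4 basal markers KRT5 and KRT15 were present at dim signals, of 5.98 to 6.57 and 5.28 to 5.59.

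Promoter sequences were taken from RefSeq (GRCh38.p14), where 13 of the 17 coding genes matched. A TOP tract was searched on the transcribed strand as a C at an annotated start followed by at least 4 pyrimidines (C or T). It was present in 10 of the 13 genes against 5.14% of the 27305 genes in the table. RPL7L1, RPS15 and RPS27L had none at the annotated start. The 5 windows below show the coding gene with the clearest difference between hormone conditions (RPL7A), 2 others with a tract (RPS14 and RPL13A) and 2 paralogs without one (RPS27L and RPL7L1). Each runs from 25 bases before the annotated start to the first 20 transcribed bases, 5′ to 3′, with the C and the run of pyrimidines after it in capitals.
RPL7A: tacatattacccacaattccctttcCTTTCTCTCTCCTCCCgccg
RPS14: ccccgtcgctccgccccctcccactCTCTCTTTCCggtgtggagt
RPL13A: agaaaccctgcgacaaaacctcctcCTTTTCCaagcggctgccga
RPS27L: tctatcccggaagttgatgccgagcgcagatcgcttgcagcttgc
RPL7L1: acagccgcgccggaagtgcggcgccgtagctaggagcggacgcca
The windows lie at chr9:133348193-133348237 (plus strand) for RPL7A, chr5:150449720-150449764 (minus) for RPS14, chr19:49487583-49487627 (plus) for RPL13A, chr15:63157458-63157502 (minus) for RPS27L and chr6:42879591-42879635 (plus) for RPL7L1. The tract was 16 bases long in RPL7A, 10 in RPS14 and 7 in RPL13A. CCGGAA, the core of ETS factor motifs, occurred on either strand of the 300-base promoter in 9 of the 13 genes and in 20.1% of all genes. The full palindromic androgen response element consensus, searched on both strands, occurred in 0 of the 13 and in 1 of the 27305 genes. These are matches of letters in one window and say nothing about binding. The 10 genes with a tract had a median mean DHT difference of -0.17 on the log2 scale, and the 3 without one -0.13. This was not tested. All 3 without a tract were measured on retained-intron or partial clones, and RPS15 was dim on all arrays. The tract can thus not be told apart from the kind of probe set.

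The coding ribosomal protein genes had slightly lower signals with DHT. Over both siRNA arms the mean log2 difference was below 0 for 17 of 17 genes, between -0.38 (RPL7A) and -0.05 (RPL7L1), with a median of -0.15. Over all annotated probe sets the median was 0.01, with 12853 of 26722 below 0, and over the 2980 probe sets with a mean signal of at least 10 it was -0.05, with 1814 below 0. None of the 17 was 1.5-fold apart in either arm, where 2.35% of annotated probe sets were at least 1.5-fold lower with DHT in the siControl arm and 3.85% in the siPOTEF-AS1 arm. In siControl cells 13 were lower and 4 higher, with a median of -0.09 (-0.05 with each array centred on its median, -0.03 with the loess trend on signal removed), and in siPOTEF-AS1 cells 16 were lower and 1 higher, with a median of -0.22. The signal was lower in both arms for 12 genes and higher in both for 0, against 30.9% and 30.8% of annotated probe sets. Among probe sets with a mean of at least 10 the share lower in both arms was 48.2%, and 6 of the 7 coding genes at that signal were; the share higher in both was 31.3%, with 0 of the 7. The arms share no array, so each serves as a repeat of the other, and the value after ± is how far each arm lies from their mean.

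**Figure D1:**
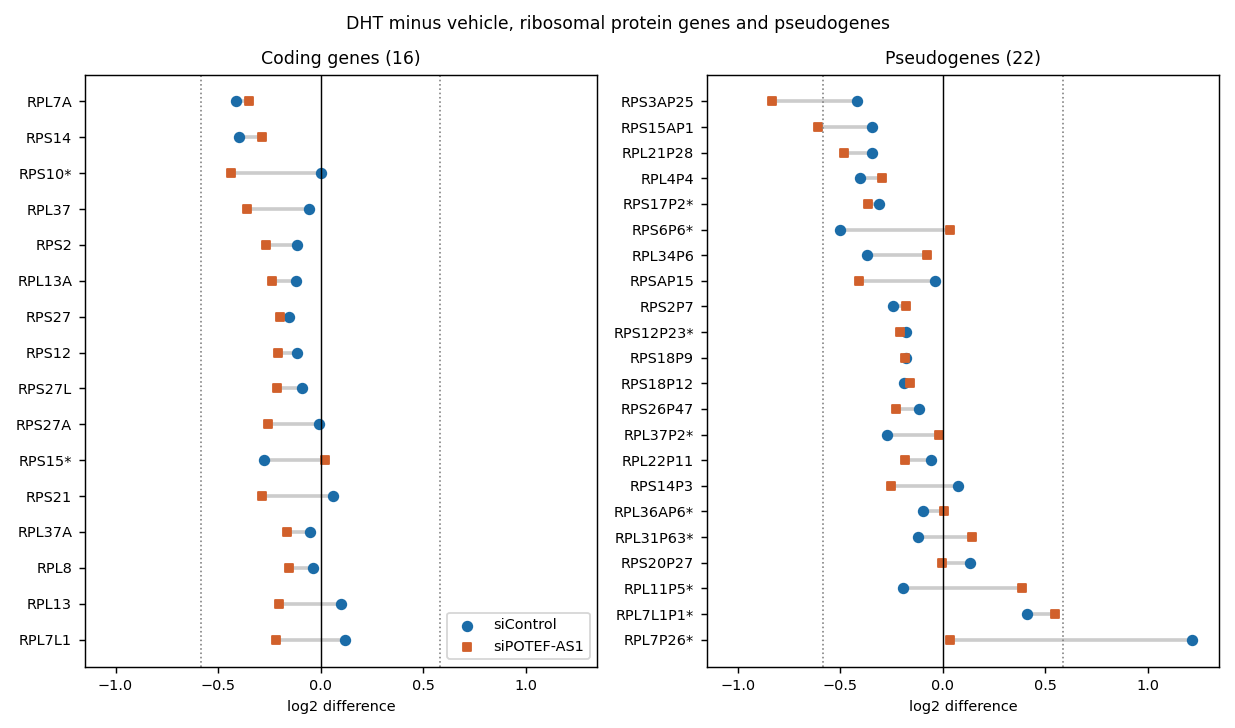
Log2 difference, DHT minus vehicle, of 16 of the 17 coding genes (left) and each pseudogene (right) in siControl cells (circles) and siPOTEF-AS1 cells (squares), 1 pair of arrays per point, ordered by the mean; dotted lines mark 1.5-fold and an asterisk a gene that is dim on all arrays. All coding genes plotted lie between the dotted lines, and most of them lie left of 0 in both arms.

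RPL7A, a large-subunit protein gene, was the only coding gene past the test. Its log2 signal was 8.99 in siControl vehicle, 8.58 in siControl DHT, 9.00 in siPOTEF-AS1 vehicle and 8.65 in siPOTEF-AS1 DHT cells. Both DHT arrays lay below both vehicle arrays. The share of all annotated probe sets with such a split was not counted, here or for the genes below. The mean difference was -0.38 ± 0.03, with a limma adjusted p of 0.0421 from an additive fit with siRNA and hormone terms (SE 0.10), the adjustment running over all 26722 annotated probe sets. That model has 1 residual degree of freedom per probe set and borrows its error from probe sets of like signal; it assumes the same DHT effect in both arms. It called 4.77% of all annotated probe sets lower and 3.95% higher with DHT, so 1 of 17 coding genes (5.88%) is near the background share. At an unadjusted limma p under 0.05 there were 6 coding genes, all lower, and 19.6% of all annotated probe sets in either direction. Without the intensity trend in the error the adjusted p of RPL7A was 0.155, and among probe sets with a single gene symbol it was 0.0742.

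The small-subunit gene RPS14, whose probe set was annotated with an intron-retaining clone, had vehicle signals of 6.93 and 6.93, siControl first, and DHT signals of 6.54 and 6.64. The DHT values were dim, and the mean difference of -0.34 ± 0.05 had a limma adjusted p of 0.193. RPS2, a small-subunit protein gene, had 13.38 and 13.42 in vehicle and 13.27 and 13.15 in DHT, in the same order of siRNAs. RPL13A, a large-subunit protein gene often used as a reference gene, had 13.42 and 13.44 in vehicle and 13.30 and 13.20 in DHT. For both, the vehicle arrays lay above the DHT arrays without overlap, with mean differences of -0.19 ± 0.08 and -0.18 ± 0.06 and limma adjusted p-values of 0.0954 and 0.101. RPS27, a zinc-finger protein of the small subunit, differed by -0.17 ± 0.02 and RPS12, also of the small subunit, by -0.16 ± 0.05, with limma adjusted p-values of 0.124 and 0.367.

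Other coding genes had smaller mean differences or were less alike between arms. RPL37 (ENSG00000145592, chromosome 5, 40825364 to 40835437, minus strand, GRCh37), of the large subunit, differed by -0.06 with DHT in siControl cells, and with siPOTEF-AS1 by -0.36. RPS27A, whose product is made as a fusion with ubiquitin, differed by -0.01 and -0.25. The large-subunit genes RPL8 (ENSG00000161016, chromosome 8, 146015155 to 146017972, minus strand, GRCh37) and RPL37A differed by -0.10 ± 0.06 and -0.11 ± 0.06 as means of both arms. RPL13 of the large subunit, RPS21 of the small subunit and the paralog RPL7L1 were 0.10, 0.06 and 0.12 higher with DHT in siControl cells and 0.20, 0.28 and 0.22 lower in siPOTEF-AS1 cells. RPS27L, a paralog of RPS27 known as a p53 target, differed by -0.15 ± 0.06. The dim RPS10 and RPS15 differed by -0.22 ± 0.22 and -0.13 ± 0.15, spreads as large as the means. Across the 17 genes, the dim RPS10 and RPS15 included, the differences of both arms had a Pearson r of -0.06. Larger differences in one arm thus did not go with larger ones in the other. Small-subunit genes had a median mean difference of -0.16 (9 genes) and large-subunit genes one of -0.12 (8 genes).

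**Figure D2:**
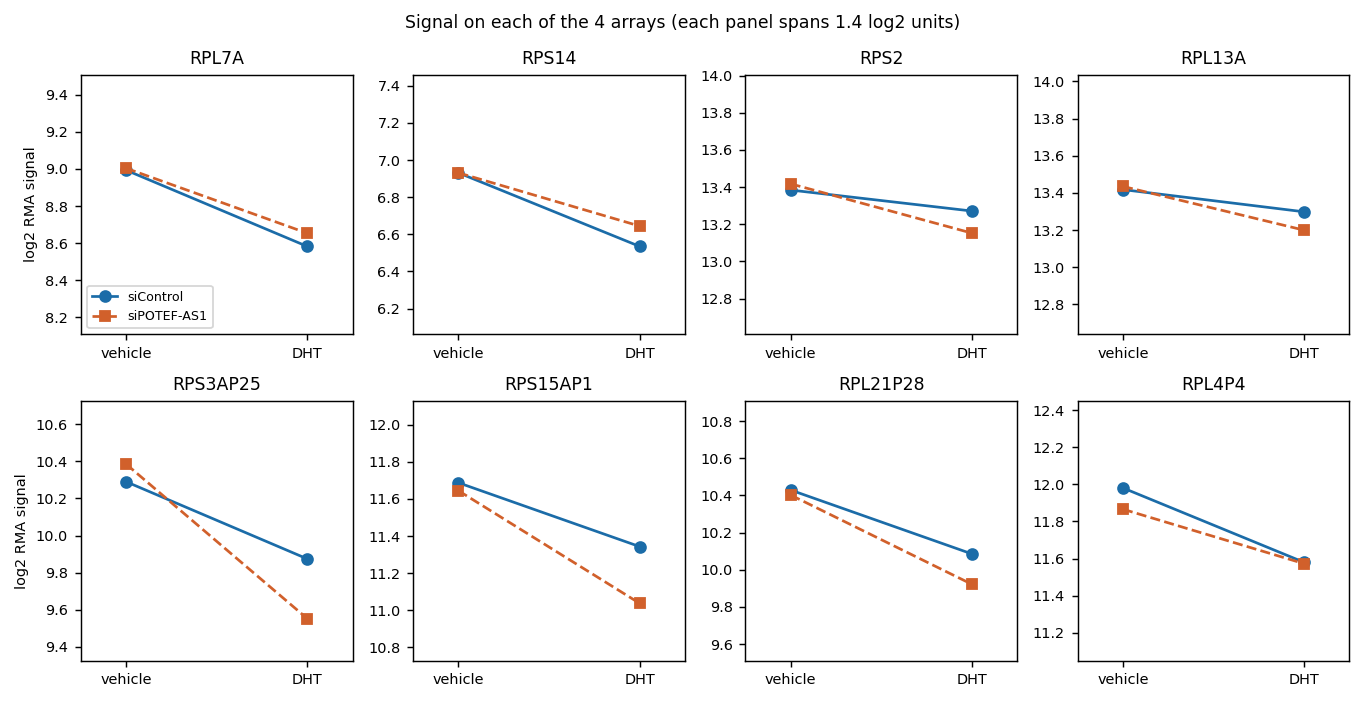
Log2 RMA signal on each of the 4 arrays for 4 coding genes (top) and 4 pseudogenes (bottom), vehicle left and DHT right, circles and solid lines for siControl, squares and dashed lines for siPOTEF-AS1; each point is 1 array and each panel spans 1.4 log2 units. In every panel both DHT points lie below both vehicle points. The genes drawn were taken from those with the largest mean differences of equal sign in both arms, a choice that favours such a split.

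Among members that were not dim on all arrays, the differences of RPS3AP25, RPS15AP1 and RPL21P28 with DHT were larger than that of any coding gene. Of the 22 pseudogenes 4 were lower at a limma adjusted p under 0.05 and 0 higher, a share of 18.2% against 4.77% of all annotated probe sets. Among annotated probe sets with a mean signal of at least 10, 12.0% were called lower, and the 4 called pseudogenes were among 8 at that signal. All 8 were lower in both arms, against 48.2% of such probe sets, with a median mean difference of -0.29 against -0.05 over such probe sets. Without the intensity trend in the error of the model none of the 4 passed, with adjusted p-values of 0.0914 to 0.191, although 817 probe sets of all did.

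RPS3AP25, a copy of RPS3A of the small subunit (ENSG00000232385, chromosome 7, 94324339 to 94325131, minus strand, GRCh37), had the largest difference among members that were not dim on all arrays. Its signal was 10.29 in siControl vehicle, 9.87 in siControl DHT, 10.38 in siPOTEF-AS1 vehicle and 9.55 in siPOTEF-AS1 DHT cells. The mean difference was -0.62 ± 0.21, or 1.54-fold, with a limma adjusted p of 0.00664. RPS15AP1, a copy of RPS15A, also of the small subunit (ENSG00000214535, chromosome 20, 21146846 to 21147236, minus strand, GRCh37), had signals of 11.69, 11.34, 11.64 and 11.04 in the same order. Both vehicle arrays were again above both DHT arrays, and it fell by 0.48 ± 0.13 on the log2 scale (limma adjusted p 0.00614). These were the only members at least 1.5-fold lower with DHT, and only in siPOTEF-AS1 cells, where they differed by -0.83 and -0.61. In that arm 3.85% of annotated probe sets were at least 1.5-fold lower, and 85 of the 2980 with a mean signal of at least 10. In siControl cells RPS3AP25 and RPS15AP1 differed by -0.42 and -0.34, and the difference between the arms was not tested.

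RPL4P4, a copy of RPL4 of the large subunit (ENSG00000229638, chromosome 3, 185135283 to 185136566, minus strand, GRCh37), had vehicle signals of 11.98 and 11.87 and DHT signals of 11.58 and 11.57, siControl first. It fell by 0.35 ± 0.05 on the log2 scale (limma adjusted p 0.0118). RPL21P28, a copy of the large-subunit gene RPL21, was measured by 2 probe sets. The brighter was annotated with a transcript on chromosome 7 (20042346 to 20042909, plus strand, GRCh37), whereas RefSeq places RPL21P28 on chromosome 1. It had signals of 10.43 and 10.40 in vehicle and 10.09 and 9.92 in DHT, a mean difference of -0.41 ± 0.07 (limma adjusted p 0.0136). The other differed by -0.37 and -0.51 with DHT in the siControl and siPOTEF-AS1 arms (limma adjusted p 0.0102), so the values of this symbol were alike whichever probe set stood for it. The coding genes RPS3A, RPS15A, RPL4 and RPL21 carried no symbol in the table, so that these copies could not be set beside their parents.

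Another 4 bright copies differed less. RPS2P7 differed by -0.21 ± 0.03, RPS18P9 by -0.18 ± 0.00 and RPS26P47 by -0.17 ± 0.05, with limma adjusted p-values of 0.127, 0.207 and 0.248. For each of these and for RPL34P6 both DHT arrays lay below both vehicle arrays, a split not counted over all annotated probe sets. The looser condition of a lower signal in both arms held for 48.2% of annotated probe sets with a mean of at least 10. RPL34P6 differed by -0.37 in siControl cells, and with siPOTEF-AS1 by -0.08. RPSAP15, a copy of the laminin receptor gene RPSA, whose protein is also part of the small subunit, differed by -0.04 and -0.41, and RPS18P12 by -0.17 ± 0.01. RPS20P27 and RPS14P3 were 0.13 and 0.08 higher with DHT in siControl cells and differed by -0.00 and -0.25 in siPOTEF-AS1 cells. RPL22P11 had 2 probe sets annotated with the same transcript, with differences between -0.06 and -0.18.

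The 9 dim pseudogenes did not share a direction, with a median mean difference of -0.05. RPS17P2 had signals of 6.39 and 6.38 in vehicle and 6.08 and 6.01 in DHT, a difference of -0.34 ± 0.03 (limma adjusted p 0.235). RPL7P26, a copy of RPL7, had 4.24 in siControl vehicle, 5.46 in siControl DHT, 4.37 in siPOTEF-AS1 vehicle and 4.40 in siPOTEF-AS1 DHT cells. A single array thus stood apart, which made RPL7P26 the only member at least 1.5-fold higher with DHT, in the siControl arm, where 2.66% of annotated probe sets were, against 3.38% in the siPOTEF-AS1 arm. RPL7L1P1 was 0.41 and 0.55 higher with DHT (limma adjusted p 0.0895), at signals of 4.17 to 4.75. The differences of dim probe sets are printed as computed and are not measured folds, because their signals were not shown to lie above background. RPS6P6 and RPL11P5 differed by -0.50 and -0.19 in siControl cells, and with siPOTEF-AS1 by 0.04 and 0.39.

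**Figure D3:**
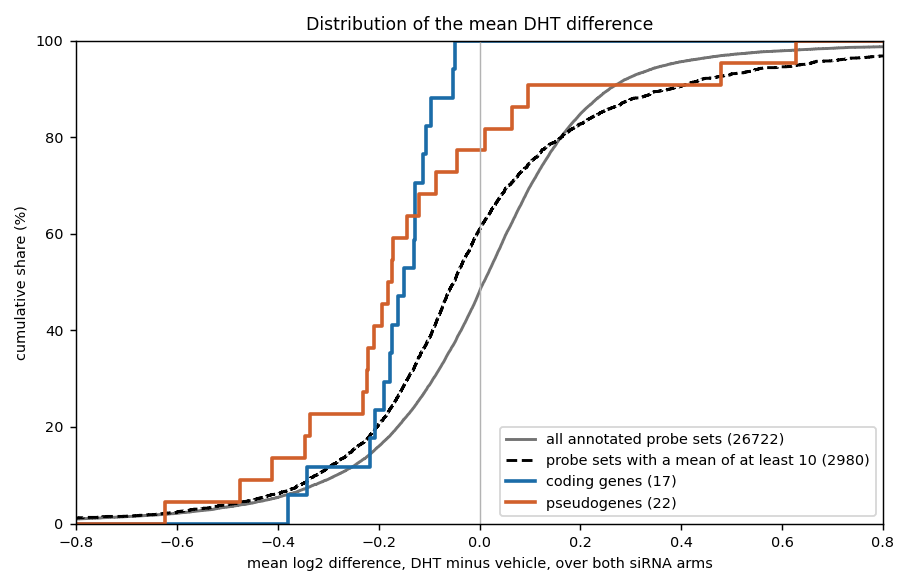
Cumulative share of the mean log2 difference, DHT minus vehicle, over both siRNA arms, for the 17 coding genes, the 22 pseudogenes, all 26722 annotated probe sets and the 2980 of these with a mean signal of at least 10; values beyond 0.8 on either side are outside the plot. The curve of the coding genes lies wholly left of 0, with a median of -0.15, and that of all annotated probe sets crosses its middle at 0.01.

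For 5 pseudogenes the parent gene was a coding member. RPS2P7 and RPS2 were both lower with DHT in both arms, by 0.24 and 0.11 in siControl cells, and with siPOTEF-AS1 by 0.18 and 0.27. RPS12P23 and RPS12 were lower by 0.18 and 0.12 and by 0.21 and 0.21, though RPS12P23 was dim, at signals of 3.41 to 3.74. RPS14P3 and RPS14 differed by 0.08 and -0.40 in siControl cells, and were close in siPOTEF-AS1 cells, at -0.25 and -0.29. The copies RPL7L1P1 and RPL37P2 were also dim on all arrays, which left RPS2P7 and RPS14P3. For RPS14P3 the parent's probe set was annotated with an intron-retaining clone and was dim with DHT. Only RPS2P7 could thus be read beside its parent. RPL7L1P1 and RPL7L1 differed by 0.55 and -0.22 in siPOTEF-AS1 cells. RPL37P2 and RPL37 differed by -0.27 and -0.06 in siControl cells and by -0.02 and -0.36 in siPOTEF-AS1 cells.

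Other genes of translation were few under their names. Of 238 genes on 6 lists 16 were measured, and by limma 0 were lower and 0 higher with DHT at an adjusted p under 0.05. Of the 16, 8 had lower signals in both arms and 4 higher signals in both, with a median mean difference of -0.06. Of 47 initiation factor genes 4 were measured. EIF4G3, a scaffold of the cap-binding complex, differed by -0.25 ± 0.09, the helicase gene EIF4A2 by -0.24 ± 0.03 and EIF3F, a subunit of the initiation complex eIF3, by -0.26 ± 0.17, whereas EIF2A differed by 0.12 ± 0.04. Their limma adjusted p-values were 0.135 to 0.514. Of 11 elongation factor genes EEF1D differed by -0.28 ± 0.01 and EEF1A1, a classic TOP mRNA that delivers aminoacyl-tRNA, by -0.18 in siControl cells, and with siPOTEF-AS1 by 0.24; the list of other TOP mRNAs (15 genes) held only these as measured genes. Of 75 ribosome biogenesis genes 6 were measured, with a median of 0.01, from BRIX1 at -0.16 ± 0.02 to NOP16 at 0.10 ± 0.08. Of 81 mitochondrial ribosomal protein genes 4 were measured, with a median of -0.05, from MRPL40 at -0.13 ± 0.03 to MRPL55 at 0.18 ± 0.00. None of the 18 regulators of TOP mRNA translation was measured by name.

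Knockdown left the coding genes with small differences of no common sign. In vehicle the median difference, siPOTEF-AS1 minus siControl, was 0.03 (0.09 with each array centred on its median) with 13 genes higher and 3 lower, and in DHT it was -0.06 with 4 higher and 13 lower. The medians over all annotated probe sets were 0.00 and 0.01. None of the 17 was 1.5-fold apart in either treatment, where 0.636% of annotated probe sets were higher and 0.947% lower in vehicle, and 0.775% and 0.651% in DHT. Of the 17, 2 were lower in both treatments (RPS12 among them) and 2 higher in both (RPS27L and RPL7A), against 23.0% and 24.9% of annotated probe sets. RPS12 (ENSG00000112306, chromosome 6, 133135580 to 133138703, plus strand, GRCh37) was lower by 0.11 and 0.20. RPS27L differed by 0.16 and 0.04 and RPL7A by 0.01 and 0.07, within the robust SD of 0.18 and 0.17 that all annotated probe sets had in vehicle and in DHT. RPL7L1 was 0.31 higher with knockdown in vehicle and differed by -0.03 in DHT.

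Among pseudogenes the median knockdown difference was -0.03 in vehicle and -0.09 in DHT. Lower signals in both treatments were seen for 11 of 22, against 23.0% of annotated probe sets, and higher signals in both for 3, against 24.9%; with each array centred on its median the 11 became 6. At a mean signal of at least 10, 5 of 8 pseudogenes and 1 of 7 coding genes were lower in both treatments and 1 pseudogene was higher, against 25.4% and 30.0% of such probe sets. RPS15AP1 differed by -0.04 and -0.31, and RPL21P28 by -0.03 and -0.16. RPL22P11, RPS2P7, RPS18P9, RPL4P4 and RPS18P12 differed by -0.02 to -0.10 as means of both treatments, and RPS26P47 was higher by 0.09 ± 0.05. The only members at least 1.5-fold apart were dim: RPS6P6 in vehicle, at -0.75, and RPL7P26 in DHT, at -1.06. By limma over both treatments 0 of the 39 members passed an adjusted p of 0.05, against 0.0150% of annotated probe sets, or 4 in number. At an unadjusted p under 0.05 there was 1 member, RPS6P6 (limma adjusted p 0.864), against 4.95% of annotated probe sets.

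**Figure D4:**
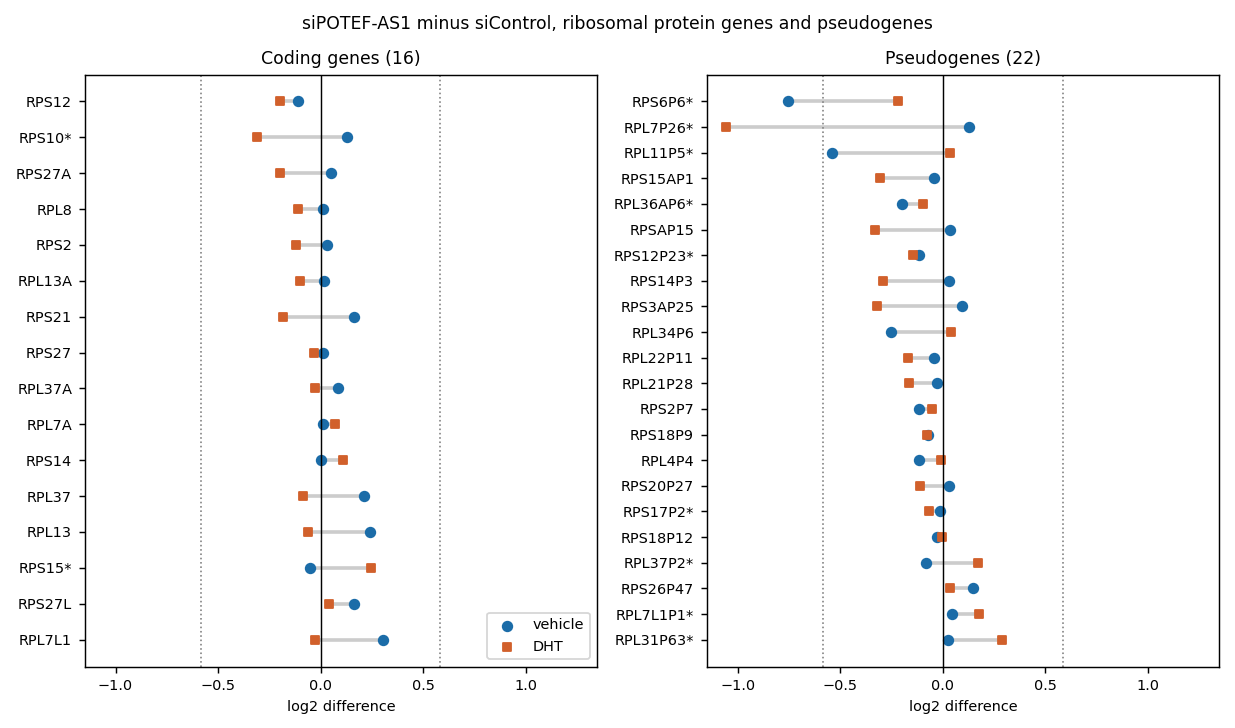
Log2 difference, siPOTEF-AS1 minus siControl, of 16 of the 17 coding genes (left) and each pseudogene (right) in vehicle (circles) and DHT (squares), 1 pair of arrays per point, ordered by the mean; dotted lines mark 1.5-fold and an asterisk a gene that is dim on all arrays. Coding genes lie on both sides of 0, and the points beyond the dotted lines belong to the dim pseudogenes RPS6P6 and RPL7P26.

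The DHT response of the coding genes was lower with siPOTEF-AS1 than with siControl for 14 of 17 genes, against 13420 of 26722 annotated probe sets and 1797 of the 2980 with a mean signal of at least 10, with a median difference of the responses of -0.12 that was -0.20 with each array centred on its median. The median was -0.00 over all annotated probe sets and -0.04 over those with a mean signal of at least 10. None of the 17 reached 1.5-fold, where 2.15% of annotated probe sets were lower and 3.61% higher, and the difference of the responses left no degree of freedom for a test. The 8 largest differences among members that were not dim on all arrays were those of RPS3AP25 (-0.42), RPSAP15 (-0.37), RPS21 (-0.35), RPL7L1 (-0.34), RPS14P3 (-0.33), RPL13 (-0.30), RPL37 (-0.30) and RPL34P6 (0.29). RPL7A, RPS14 and RPS27, at 0.06, 0.11 and -0.04, responded much alike in both arms. Among the pseudogenes 12 responses were lower and 10 higher with siPOTEF-AS1, with a median of -0.02 that was -0.09 with each array centred on its median, and the dim RPL7P26 was the only one past 1.5-fold, at -1.18.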

How the data were processed

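RNA of 4 samples was measured on Affymetrix whole-transcript arrays. The submitters' processing notes name RMA and Affymetrix Expression Console as the tools behind the deposited log2 signals per probe set; versions are not given in the sources used here. A second deposited table held the same log2 values within 1.78e-15. No detection calls were used, and precision is limited by there being 4 arrays. Groups came from the labels.

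Members, lists and tests were chosen with earlier results of these data known. Differences are log2 differences of 2 arrays, called at 1.5-fold. limma 3.58.1 (R 4.3.3) fitted siRNA and hormone additively to all 26722 annotated probe sets, with an intensity trend and Benjamini-Hochberg adjustment. The labels do not say that arrays came from separate cultures, so its p-values measure only the spread between these arrays. The fit was tested on simulated data. Of 50 probe sets shifted by 0.3 on the log2 scale 15 were called, and of 50 shifted by 0.6, 50. Of 26522 unshifted ones 8 were called. Every simulated probe set had the same normal error, the median residual SD of the real ones, whatever its signal. These counts therefore do not give the power or the rate of false calls on the real arrays.

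Named members were up to 8 per direction with the largest mean difference of equal sign in both arms among members not dim on all arrays, and the 8 largest differences of DHT responses; 1 coding gene is counted but not reported here by name, and other members outside this rule were named as part of the full account. Alternatives were other normalizations, brightness filters, probe set choices, a 2-fold threshold and the fit without trend.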

Additional observations from a re-analysis of the deposited data

Results flagged for a closer look

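In 4 members among the 8 largest differences of the DHT responses DHT arrays had the higher signal with siControl and the lower one with siPOTEF-AS1, with 1 pair of arrays in each arm; the difference was not tested. The response with siPOTEF-AS1 minus that with siControl was -0.35 for RPS21, -0.34 for RPL7L1, -0.33 for RPS14P3 and -0.30 for RPL13. RPS21 and RPL7L1 were measured on probe sets annotated with an intron-retaining and a partial clone.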

How the results depend on the processing

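Of 463 values under alternatives 396 were classed as unchanged, and 0 reversed a called direction. That class allowed changes of size. With the loess trend removed, the coding median for DHT in siControl cells went from -0.089 to -0.032. With each array centred on its median, that for knockdown in vehicle went from 0.034 to 0.089. The class also held values that could not change, such as those of the second deposited table. The cause of changes outside that class was not tested unless fewer members explain it. With each array centred on its median, the pseudogene median was -0.15 for DHT in siControl cells, -0.22 in siPOTEF-AS1 cells, 0.022 for knockdown in vehicle and -0.091 for the difference of responses, and limma called 2 pseudogenes higher with DHT, the dim RPL7L1P1 and RPL7P26. Arrays quantile-normalised again gave -0.15 in siPOTEF-AS1 cells and 0.0032 for the difference of responses. With the loess trend removed the values were -0.17 and -0.12 for DHT in both arms and 0.0096 for the difference, with 1 pseudogene past 1.5-fold lower in siPOTEF-AS1 cells. With members at or above the median alone (13 pseudogenes) the values were -0.19, -0.23 and -0.13, and at the 75th percentile (8 pseudogenes) -0.34, -0.26 and -0.056. There, with fewer members, 0 pseudogenes were past 1.5-fold higher with DHT in siControl cells, lower with knockdown in vehicle or in DHT, or lower in the difference of responses, and at the 75th percentile 8 were lower with DHT in both arms. The mean of all probe sets of a symbol gave a pseudogene median of -0.17 in siPOTEF-AS1 cells. At 2-fold 0 pseudogenes were lower with DHT in siPOTEF-AS1 cells and 0 with knockdown in vehicle. By limma, filters at the median and the 75th percentile called 2 of 15 and 3 of 13 coding genes lower with DHT. These were RPL7A with RPS2, and with RPL13A at the latter. Calls rose over all probe sets too, to 2985 of 14023 and 2458 of 7257 in either direction, from 2331 of 26722 without a filter. Without the intensity trend limma called 0 coding genes and 0 pseudogenes lower and 817 of all probe sets in place of 2331. Among probe sets with 1 gene symbol, chosen after seeing the data, it called 0 coding genes lower and 123 of 2540 probe sets. Among members with a mean of at least 10, also added later, limma called 0 coding genes lower, and 6 of 7 coding genes and 8 of 8 pseudogenes were lower with DHT in both arms. Without the retained-intron and partial clones 10 of 12 coding genes were lower in both arms. Knockdown calls over all probe sets, 4 in the report, were 161 after centring, 17 after quantile normalization, 62 and 101 with the filters, 9 with identical probe sets counted once, and 0 without the trend or among probe sets with 1 symbol; 0 members were called in any of these. No paired analysis was possible because the labels give no replicate numbers by which arrays could be paired; the additive fit itself compares the hormone within each siRNA arm.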
